A study of Mus musculus with 12 samples.

Results

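RNA from the cornea of mice with a dry eye disease (DED) model was compared with RNA from the cornea of untreated mice, 3 libraries against 3, across all genes with enough reads. Of the 28548 lines of the deposited table, 14711 genes had a count of at least 10 in at least 3 of these 6 libraries and were tested. The 6 libraries are among 12 samples of a study that also gave DED mice stem cell-derived exosomes, which are not described here. Both groups were wild-type mice, the tissue was cornea, total RNA was extracted, and all libraries carry 1 batch label. The controls are labelled as having no treatment and the other group as the DED model. The labels give no strain, age, sex or hour of collection, and they do not say how dry eye was induced, so what the model consists of is not given in the sources used here. They also do not say whether a library came from 1 animal or a pool, so the p-values measure the spread between these libraries, which may be technical.

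The cornea is covered by a stratified squamous epithelium that renews from basal cells and rests on a basement membrane over a collagen stroma. Its surface is kept wet by the tear film. In dry eye, loss or concentration of tears is known to stress this epithelium, which responds with cytokines of the interleukin-1 family, with cornified envelope proteins normally typical of skin, and with altered lipids. Corneal cells also run the circadian clock, in which CLOCK and BMAL1 (gene Arntl) switch on Per, Cry, Nr1d and Dbp family genes, and the products of Per, Cry and Nr1d then hold the activators back.

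Total counts were 10893978 to 12972945 in the controls and 10355125 to 14263045 in the DED libraries. The tissue label was checked against markers of the corneal epithelium, which were high throughout. Krt12, the corneal keratin, was at 297190, 435959 and 406384 normalized counts in controls 1, 2 and 3 and 430800, 583468 and 496426 in DED 1, 2 and 3, which was 2.75% to 4.5% of all counts. It overlaps the antisense gene A830036E02Rik, and its groups overlapped. Pax6, the eye transcription factor, was at 6872, 5796 and 6532 in the controls and 6336, 5090 and 4468 in the DED libraries (-0.28, SE 0.16, adjusted p = 0.28), and Krt5, a basal keratin, at 209108, 313496 and 264815 in the controls and 224517, 292620 and 247830 in the DED libraries (-0.03, SE 0.18, adjusted p = 0.93). These 3 did not pass the test. A further marker chosen for this check, the basal keratin gene Krt14, did pass and was higher in the DED libraries (0.88, SE 0.21, adjusted p = 0.048). Its values are given further on. The libraries differed among themselves: on the first principal component, with 55.3% of the variance, controls 1, 2 and 3 lay at -70.1, -6.0 and -34.4 and DED 1, 2 and 3 at 14.4, 36.2 and 59.9. Summed retina markers were 356.3, 6720 and 1828 normalized counts in the controls and 7016, 4025 and 31389 in the DED libraries, so this list varied widely within both groups and did not separate them.

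In total 700 genes passed the test (4.76% of those tested), 344 higher in the DED model (2.34%) and 356 lower (2.42%). A gene is said to have risen or fallen where its adjusted p in limma, after Benjamini-Hochberg adjustment over all 14711 genes, was below 0.05. By at least 2-fold, 190 rose and 98 fell. The higher genes had a median change of 1.05 on the log2 scale and the lower ones 0.81 in size, while the median over all tested genes was -0.005. The share of higher genes depended on the scaling: 49.1% with median-of-ratios, 27.8% of 857 (238 higher, 619 lower) with library totals, 61.5% of 675 (415 and 260) with the 75th percentile and 70.2% of 104 (73 and 31) as deposited. Library totals also shifted the median of all genes to -0.126. All 700 kept their direction under each of these scalings. The scalings put the median of all genes between -0.126 and 0.05, so reversals could hardly occur. In all 700 the groups did not overlap, as in 30.7% of all genes tested. Separate groups in a passing gene therefore add nothing to its call. The count depended on single libraries: leaving out control 1, 2 or 3 gave 194, 1071 and 110 genes, and leaving out DED 1, 2 or 3 gave 812, 317 and 97. Among all 700 genes that passed, 72 kept the call in all 6 of these fits. Of the 134 passing genes that the naming rule picked, 66, 13 and 83 lost the call without controls 1, 2 and 3. Without DED 1, 2 and 3, 25, 53 and 81 of them lost it, and 44 kept it in all 6 fits. The rule picked genes by small p, so the named genes are not typical of the 700.

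**Figure D1:**
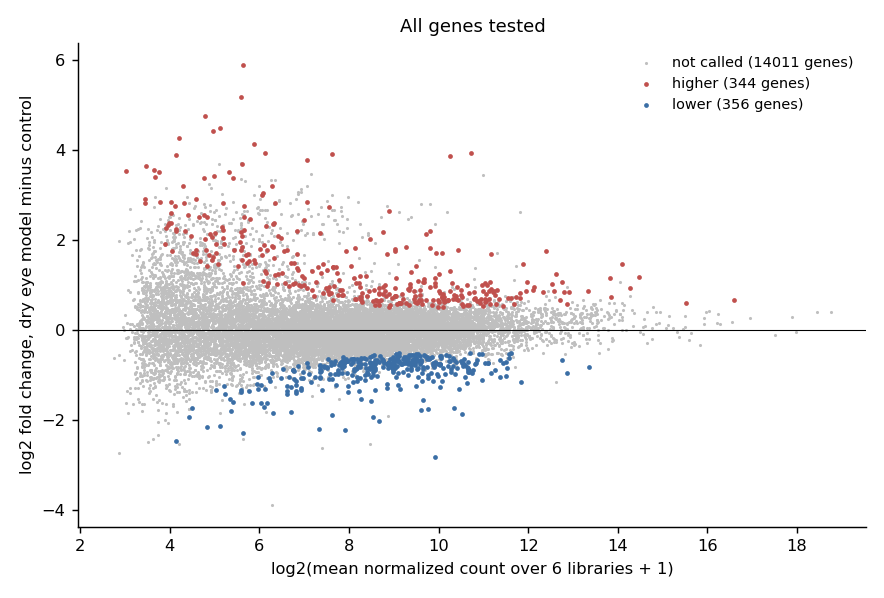
Each point is 1 of the 14711 genes tested, with the log2 of its mean normalized count over the 6 libraries plus 1 on the x axis and its log2 fold change, dry eye model minus control, on the y axis. Red points are the 344 genes that were higher and blue points the 356 that were lower, and the largest changes lie on the higher side.

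Among the 12 strongest falls, 5 were genes of the circadian clock or its output. Here and below, strongest means the smallest p, not the largest change. It was taken among passing genes changed at least 2-fold with separate groups, predicted genes left out. Of 19 genes of the clock loop, 7 fell and 3 rose, with a list median of -0.44, where 2.42% and 2.34% of all genes did so. The repressors Per2, Per3, Cry2, Nr1d1, Nr1d2, Bhlhe40 and Ciart fell, while the activators Arntl and Npas2 and the repressor Cry1 rose. Without any 1 library 2 or 3 still rose and 5 or 6 fell. The labels give no hour of collection. The part of hour in the clock results was therefore not tested and cannot be told apart from that of the model. Short stretches of the promoters of 4 passing clock genes are shown, because they hold letters that clock proteins bind. They are RefSeq sequences of GRCm38.p6 within the 250 bases before the gene's start, and capitals mark CACGTG, the E-box bound by CLOCK and BMAL1, or TTANGTAA, the D-box bound by DBP, TEF, HLF and NFIL3.
Per3 (chr4:151044794-151044892, minus strand, D-box): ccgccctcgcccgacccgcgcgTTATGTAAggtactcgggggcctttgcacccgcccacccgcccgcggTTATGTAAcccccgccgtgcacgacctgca
Cry1 (chr10:85185087-85185136, minus strand, E-box): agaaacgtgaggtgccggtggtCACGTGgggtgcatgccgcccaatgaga
Ciart (chr3:95882245-95882308, minus strand, E-box): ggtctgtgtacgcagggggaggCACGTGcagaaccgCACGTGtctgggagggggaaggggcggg
Tef (chr15:81802524-81802573, plus strand, E-box): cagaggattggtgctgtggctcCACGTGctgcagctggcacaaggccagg
The Per3 stretch holds 2 D-boxes, and the Ciart stretch 2 of the 3 E-boxes found in that window. An E-box was found in 4 of the 14 loop members with a RefSeq promoter (28.6%), against 9.58% of the 10582 tested genes with one, and a D-box in 2 of 14 (14.3%) against 1.68%. Of the 11 clock output genes with a RefSeq promoter 2 held an E-box (18.2%) and 0 a D-box. Both strands were searched, and none of the stretches shown here or further on held a match of another of the motifs searched. Genes with an E-box lie on both sides, since Cry1 rose and Ciart and Tef fell.

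Among the period and cryptochrome repressors, Per3 was at 1530, 1045 and 1026 normalized counts in controls 1, 2 and 3 and 322, 382 and 337 in DED 1, 2 and 3 (log2 fold change -1.77, SE 0.17, adjusted p = 0.00206). Per2 was at 310.5, 208 and 259.7 in the controls and 29.1, 84 and 67.8 in the DED libraries (-2.20, SE 0.35, adjusted p = 0.0125), with DED 1 the lowest. Leaving out 1 library at a time gave adjusted p-values of 0.000883 to 0.0152 for Per3 and 0.00419 to 0.0598 for Per2, which lost its call without control 1 (0.0598) or control 3 (0.0586). Both period genes had every DED library below every control, whereas Per1, at 352, 358 and 637 in the controls and 176, 412 and 333 in the DED libraries, overlapped between the groups and did not pass (-0.57, SE 0.34, adjusted p = 0.323). The cryptochromes moved apart. Cry1 was at 94.1, 133 and 99.88 in the controls and 264, 301 and 298 in the DED libraries (1.41, SE 0.19, adjusted p = 0.00554). Cry2 was at 519, 672 and 423 in the controls and 134, 212 and 197 in the DED libraries (-1.57, SE 0.22, adjusted p = 0.00753). Thus Cry1 was higher and Cry2 lower in all 3 DED libraries, and both kept the call without each library in turn.

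Arntl, which encodes the activator BMAL1, was at 142, 153 and 128 normalized counts in controls 1, 2 and 3 and 475, 288 and 397 in DED 1, 2 and 3 (log2 fold change 1.42, SE 0.20, adjusted p = 0.00724). Its partner Clock did not pass, at 1920, 1180 and 1515 in the controls and 2046, 1096 and 1218 in the DED libraries (-0.11, SE 0.25, adjusted p = 0.812), and Npas2, a relative of Clock that can take its place, was at 104, 101 and 93.6 in the controls and 212, 192 and 154 in the DED libraries (0.89, SE 0.19, adjusted p = 0.0303). Arntl and Npas2 did not overlap between the groups, and Clock did. Npas2 kept its call when control 2 was left out (adjusted p = 0.0377) and lost it when any other library was (up to 0.118). The nuclear receptors that repress Arntl went the other way. Nr1d1 was at 1811, 2224 and 1898 in the controls and 428, 748 and 634 in the DED libraries (-1.74, SE 0.20, adjusted p = 0.00359) and Nr1d2 at 1738, 921 and 1385 in the controls and 419, 363 and 379 in the DED libraries (-1.75, SE 0.21, adjusted p = 0.00432). Nr1d1 overlaps the antisense gene Thra, and whether strand was used in counting is not given in the sources used here. Of the receptors that activate Arntl, Rora and Rorb did not pass: Rora had a log2 fold change of -0.44 (SE 0.21) and Rorb of 1.32 (SE 1.05).

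Further repressors of the loop were Bhlhe40, at 1976, 2217 and 2259 in the controls and 1146, 1119 and 1131 in the DED libraries (-0.92, SE 0.12, adjusted p = 0.00602), and Ciart, at 59.1, 89 and 83.1 in the controls and 18, 35.1 and 38.3 in the DED libraries (-1.36, SE 0.34, adjusted p = 0.0495). Ciart lost its call when any 1 library was left out (adjusted p = 0.0677 to 0.158). The DED values of Bhlhe40 lay closer together than those of any other clock gene described here. Its relative Bhlhe41 was at 56.6, 65.1 and 53.6 in the controls and 20.5, 17.5 and 63.8 in the DED libraries, where DED 3 lay among the controls, and it did not pass (-1.0, SE 0.44, adjusted p = 0.186). The kinase genes Csnk1d (-0.22, SE 0.13, adjusted p = 0.312) and Csnk1e (0.51, SE 0.15, adjusted p = 0.0734), whose products mark PER proteins for decay, did not pass either.

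The output of the loop fell in part. Of 12 tested output genes 3 fell and 0 rose, where 2.42% and 2.34% of all genes did so. Their median was -0.50 (5 fell without control 2). Dbp, a transcription factor that carries clock rhythm to other genes, was at 1462, 2005 and 1579 normalized counts in controls 1, 2 and 3 and 126, 361 and 289.7 in DED 1, 2 and 3 (log2 fold change -2.81, SE 0.37, adjusted p = 0.0114), the largest fall among all called genes. Tef, its relative, was at 2474, 2007 and 2358 in the controls and 418, 873 and 663 in the DED libraries (-1.86, SE 0.23, adjusted p = 0.00518). Both were lower in every DED library and lowest in DED 1, and Dbp lost its call without control 1 (adjusted p = 0.0619) or control 3 (0.0508). Cyp2a5, a cytochrome P450 gene that DBP-type factors are known to drive in mouse liver, was at 508, 587 and 663 in the controls and 152, 193 and 119 in the DED libraries (-1.93, SE 0.19, adjusted p = 0.00235). Its count is uncertain because Cyp2a4 is a near-identical copy, and Dbp overlaps the antisense gene Sphk2. Hlf, the remaining factor of the family, was at 3188, 2341 and 3350 in the controls and 2220, 1575 and 1612 in the DED libraries (-0.72, SE 0.18, adjusted p = 0.054), and Nfil3, which opposes them at the D-box, at 5.83, 7.59 and 6.31 in the controls and 30.8, 16.3 and 23.6 in the DED libraries (1.66, SE 0.44, adjusted p = 0.0599). Neither passed, although their groups did not overlap, as in 30.7% of all genes tested. The glucocorticoid-responsive genes Fkbp5 (-0.80, SE 0.22, adjusted p = 0.0631) and Tsc22d3 (-0.09, SE 0.22, adjusted p = 0.814) and the clock-driven kinase gene Wee1 (-0.64, SE 0.24, adjusted p = 0.138) did not pass.

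**Figure D2:**
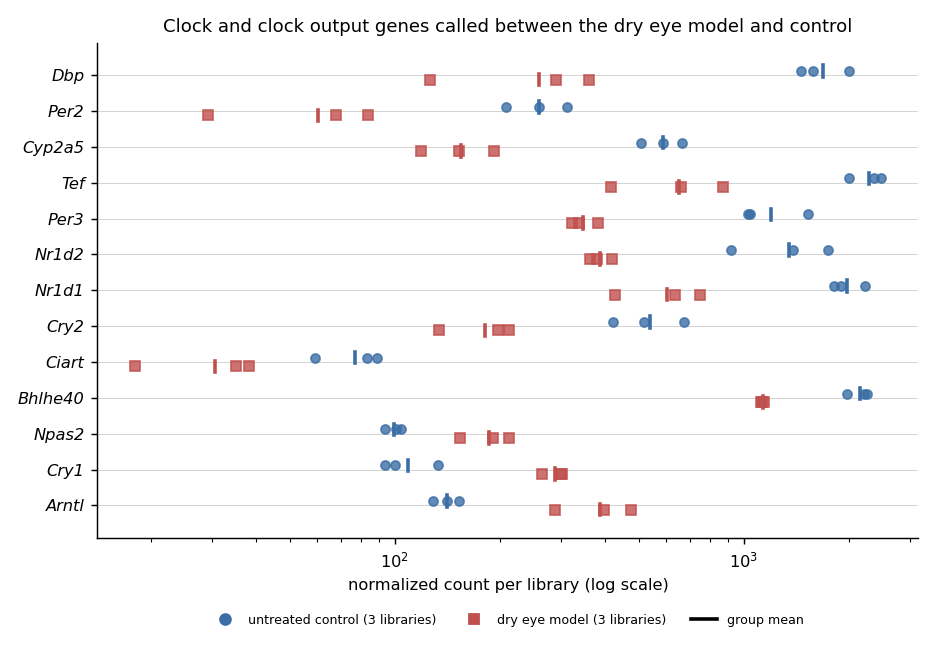
Normalized counts (log scale) of the 13 clock loop and output genes that passed, 1 point per library, circles for the 3 controls and squares for the 3 DED libraries, with vertical bars at the group means. In each gene the groups are separate, as in all 700 genes that passed. Dbp shows the widest gap (1462 to 2005 against 125.8 to 360.9), and Npas2, Cry1 and Arntl are the 3 genes with squares to the right.

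The 12 strongest risers were genes of several unlike roles. Pigz, a mannosyltransferase gene of glycosylphosphatidylinositol anchor synthesis, was at 20.8, 19.5 and 11.6 normalized counts in controls 1, 2 and 3 and 277, 277 and 186 in DED 1, 2 and 3 (log2 fold change 3.78, SE 0.29, adjusted p = 0.000965). Alox12b, the 12R-lipoxygenase of the skin lipid barrier, was at 3.33, 4.34 and 8.41 in the controls and 148, 65.2 and 119 in the DED libraries (4.14, SE 0.44, adjusted p = 0.00296). Vsig10l, a gene for an immunoglobulin-domain membrane protein, was at 536, 632 and 686 in the controls and 2363, 2198 and 1855 in the DED libraries (1.79, SE 0.15, adjusted p = 0.000965). In these 3 genes the lowest DED library was more than 2-fold above the highest control. Alpl, the tissue-nonspecific alkaline phosphatase, was at 935, 1087 and 1260 in the controls and 3532, 3907 and 3187 in the DED libraries (1.70, SE 0.15, adjusted p = 0.00134). Ly6d, an anchored surface protein of squamous cells, was at 18.3, 24.9 and 25.2 in the controls and 133, 105 and 111 in the DED libraries (2.31, SE 0.26, adjusted p = 0.00359). Krt90, a type II keratin gene with an antisense neighbour (Gm44393), was at 96.6, 202 and 186 in the controls and 739, 762 and 613 in the DED libraries (2.18, SE 0.25, adjusted p = 0.00414). All 12 of the strongest risers kept their call without each library in turn. They were chosen by the smallest p in these same libraries, so this was likely beforehand and adds little. Gch1, the rate-limiting enzyme of tetrahydrobiopterin synthesis, was at 91.6, 139 and 139 in the controls and 412, 503.7 and 389 in the DED libraries (1.83, SE 0.20, adjusted p = 0.00326). AA467197, the mouse counterpart of human C15orf48, was at 166, 231 and 322 in the controls and 770.4, 834 and 821 in the DED libraries (1.80, SE 0.21, adjusted p = 0.00414). Las1l, a ribosomal RNA processing gene, rose by 1.25 on the log2 scale (SE 0.13) and Clca3b, of the calcium-activated chloride channel regulator family, by 1.82 (SE 0.20).

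Among the strongest falls outside the clock, Ccnd2, which encodes the G1 cyclin D2, was at 1418, 1048 and 1125 normalized counts in controls 1, 2 and 3 and 358, 418 and 431 in DED 1, 2 and 3 (log2 fold change -1.56, SE 0.15, adjusted p = 0.00206). It was the 1 gene of 29 mitosis and cyclin genes that passed, and of 32 genes of the MCM helicase and DNA replication none passed, with a median of 0.22. Gldc, the glycine decarboxylase of the mitochondrial glycine cleavage system, was at 716, 749.5 and 811 in the controls and 318, 293 and 375 in the DED libraries (-1.21, SE 0.14, adjusted p = 0.00414). Kit, the receptor for stem cell factor, was at 1801, 1356 and 1313 in the controls and 702, 722 and 617 in the DED libraries (-1.12, SE 0.15, adjusted p = 0.00664). In each of these the highest DED library lay below the lowest control, as the choice of these genes required. Plxnb1, a receptor for semaphorins, was at 2501, 1910 and 2185 in the controls and 924, 1095 and 887 in the DED libraries (-1.18, SE 0.15, adjusted p = 0.00474). Sorl1, an endosomal sorting receptor, was at 4319, 3839 and 3512 in the controls and 1987, 2069 and 1723 in the DED libraries (-1.01, SE 0.14, adjusted p = 0.00664). The sorting nexin gene Snx31 (-1.14, SE 0.14, adjusted p = 0.0047) and Ahnak2, which encodes a very large scaffold protein (-1.31, SE 0.15, adjusted p = 0.00359), also fell. All 12 of the strongest falls kept their call without each library in turn, which their choice by the smallest p in these libraries made likely beforehand.

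**Figure D3:**
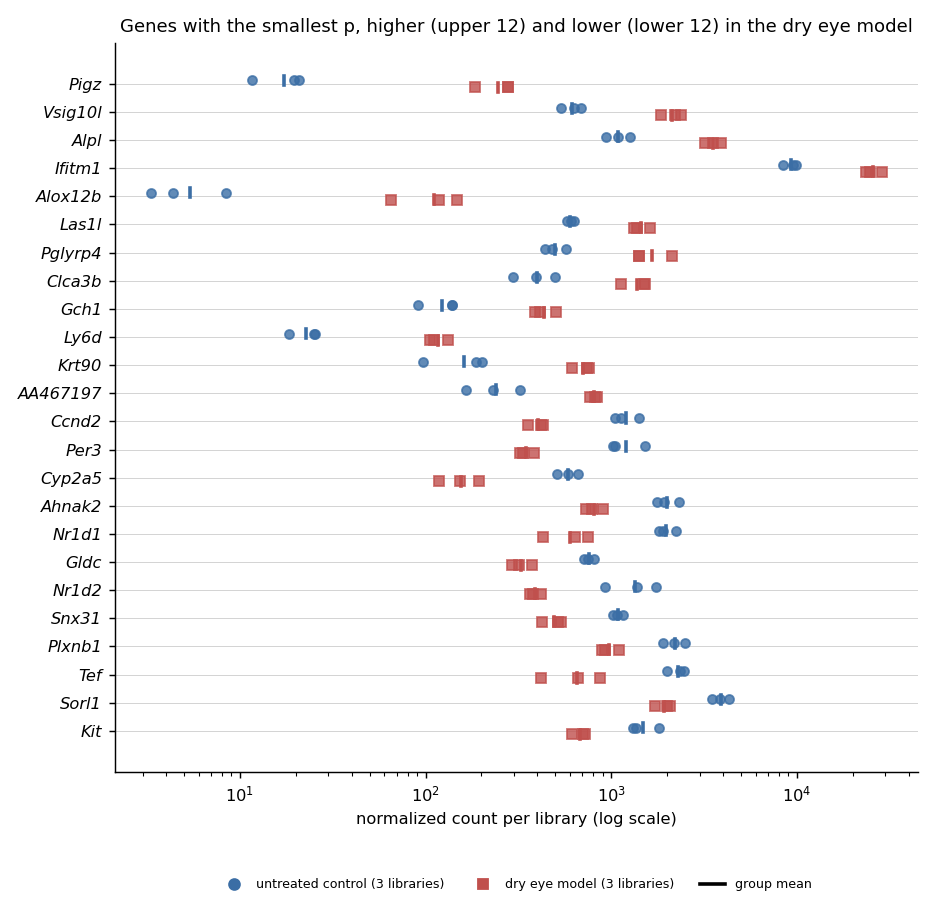
Normalized counts (log scale) of the 12 genes with the smallest p among those at least 2-fold higher and the 12 among those at least 2-fold lower in the dry eye model, 1 point per library (circles, 3 controls; squares, 3 DED libraries) with vertical bars at the group means. The 2 groups are separate in all 24 genes because the choice of genes required it, and Alox12b and Pigz show the widest gaps.

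Cytokine genes of the interleukin-1 and interleukin-36 family rose together: 6 of 13 tested members rose and 0 fell, with a median of 0.94. Of all genes tested 2.34% rose and 2.42% fell. Without any 1 library 5 or 6 members of the family rose. Il1f6, Il1f8 and Il1f9, the older names of the genes for interleukin-36 alpha, beta and gamma, are agonists released by stressed epithelium. Il1f6 was at 17.5, 11.9 and 30.5 normalized counts in controls 1, 2 and 3 and 183, 113 and 125 in DED 1, 2 and 3 (log2 fold change 2.82, SE 0.36, adjusted p = 0.00479), and Il1f8 at 46.6, 53.1 and 73.6 in the controls and 384, 197 and 226 in the DED libraries (2.16, SE 0.28, adjusted p = 0.00518). Il1f9 was the most abundant by count, at 238, 266 and 459.5 in the controls and 2078, 1106 and 1244 in the DED libraries (2.20, SE 0.30, adjusted p = 0.00976). All 3 agonists were highest in DED 1. Il1a, the interleukin-1 alpha stored in epithelial cells, was at 444, 379 and 491 in the controls and 976, 798 and 882 in the DED libraries (1.02, SE 0.15, adjusted p = 0.00858). The natural antagonists of both branches rose as well. Il1f5, the interleukin-36 receptor antagonist, was at 117, 128 and 127 in the controls and 349, 267 and 288 in the DED libraries (1.26, SE 0.17, adjusted p = 0.00584). Il1rn, the interleukin-1 receptor antagonist, was at 234, 283 and 313 in the controls and 719.9, 402 and 505 in the DED libraries (0.94, SE 0.21, adjusted p = 0.0371). Il18 did not pass (0.58, SE 0.15, adjusted p = 0.0548). Il1f6, Il1f8, Il1f5 and Il1a kept their calls without each library in turn.

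The promoters of 3 of these genes and of Sprr1a, described further on, hold TGANTCA, the AP-1 letters bound by FOS and JUN proteins, which drive many genes of squamous epithelia. They are shown from RefSeq, GRCm38.p6, with the match in capitals.
Il1a (chr2:129309973-129310006, minus strand): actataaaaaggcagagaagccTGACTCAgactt
Il1rn (chr2:24336697-24336747, plus strand): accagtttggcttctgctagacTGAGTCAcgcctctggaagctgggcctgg
Il1f8 (chr2:24152922-24152964, plus strand): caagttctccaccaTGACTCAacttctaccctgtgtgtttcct
Sprr1a (chr3:92485969-92486049, minus strand): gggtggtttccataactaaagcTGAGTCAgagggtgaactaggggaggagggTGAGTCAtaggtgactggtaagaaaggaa
The match of Il1a lies 12 bases before the start, and the Sprr1a stretch holds 2 matches. An AP-1 match was found in 3 of 12 interleukin family promoters (25%) and in 6 of 16 cornification promoters (37.5%), against 5.65% of all tested genes with a RefSeq promoter. Of the higher genes with such a promoter 9.92% held a match, and of the lower ones 6.69%. The part of AP-1 in these results was not tested. The immediate early genes, which include those of the AP-1 proteins, had 0 of 20 passing, and Fos was at 778, 1035 and 713 in the controls and 353, 570.1 and 578 in the DED libraries (-0.77, SE 0.21, adjusted p = 0.0677).

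Other inflammatory genes moved singly, and their counts stand against 2.34% of all genes higher and 2.42% lower. Tnf was at 53.3, 48.8 and 65.2 normalized counts in controls 1, 2 and 3 and 130.1, 194 and 156 in DED 1, 2 and 3 (log2 fold change 1.5, SE 0.23, adjusted p = 0.00976), the 1 gene of 11 tested cytokines and receptors that passed, and its adjusted p was 0.0561 without DED 3. Of 9 tested chemokines, Cxcl16, a membrane-bound ligand for T cells, rose (206, 273 and 256 in the controls and 378, 439.8 and 531 in the DED libraries, log2 fold change 0.87, adjusted p = 0.0244). Cx3cl1, the other membrane-bound chemokine, fell (349.6, 300.5 and 328 in the controls and 139, 208 and 165 in the DED libraries, log2 fold change -0.95, adjusted p = 0.021). The pair of membrane-bound chemokines thus went in opposite directions, and neither passed without control 1 (0.0798 and 0.0725) or DED 3 (0.125 and 0.0977). The chemokine list as a whole had 8 of 9 tested members positive, with a median of 0.55, and Cx3cl1 was the exception. In the NF-kB list 3 of 22 rose: Birc3, an inhibitor of apoptosis (0.82, SE 0.17, adjusted p = 0.0297), Icam1, an adhesion molecule for leukocytes (1.69, SE 0.38, adjusted p = 0.0354), and Irak3, a brake on receptor signalling (1.43, SE 0.32, adjusted p = 0.0359). That count was 1 without control 1 or DED 1 and 0 without DED 2 or DED 3. Pycard, the adaptor of the inflammasome, rose (0.92, SE 0.16, adjusted p = 0.0136), as did Gsdma, a pore-forming gasdermin (2.08, SE 0.45, adjusted p = 0.0328), while the sensor gene Nlrp1b fell (-1.94, SE 0.48, adjusted p = 0.0495). None of these 3 passed without control 3 (0.0686, 0.113 and 0.162) or DED 3 (0.0695, 0.0722 and 0.156).

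The numbers of interferon and antigen presentation genes that passed stood near or below the background of 2.34% higher and 2.42% lower. Of 40 interferon-stimulated genes 1 rose and 1 fell, with a median of -0.12, and 0 of 24 antigen presentation genes passed. Ifitm1, an interferon-induced membrane protein that blocks virus entry, was at 8412, 9923 and 9476 normalized counts in controls 1, 2 and 3 and 28719, 24776 and 23527 in DED 1, 2 and 3 (log2 fold change 1.47, SE 0.14, adjusted p = 0.00206). Gbp2, a guanylate-binding protein gene, was at 539, 654 and 619 in the controls and 368, 345 and 302 in the DED libraries (-0.84, SE 0.14, adjusted p = 0.0146). Every DED library lay above the controls for Ifitm1 and below them for Gbp2, which lost its call without control 3 (0.0762) or DED 3 (0.0877). Without control 1, 4 of the 40 fell, and without control 2, 4 rose. The list median was -0.54 without control 1 and 0.08 without control 2 or control 3. The controls differed among themselves: the list summed to 22049, 34958 and 34990 in controls 1, 2 and 3. Isg15 was at 275.5, 1715 and 1628 in the controls and 874, 1030 and 1027 in the DED libraries. Not every member was lowest in control 1, since Ddx58 was at 953.1, 771.2 and 779.1. The small counts therefore do not show that the groups were alike. H2-Aa, a class II chain, was at 117, 124 and 115 in the controls and 96.7, 66.4 and 84.5 in the DED libraries (-0.53, SE 0.21, adjusted p = 0.151) and Ctss, a protease of class II processing, at 152, 179 and 184 in the controls and 127, 97.7 and 109 in the DED libraries (-0.62, SE 0.19, adjusted p = 0.0814). Acute phase and complement genes had 0 of 13 passing, with a median of 0.69, and the complement regulator Serping1 (1.02, SE 0.27, adjusted p = 0.0568) had the smallest p.

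In the list of antimicrobial proteins and S100 alarmins 7 of 15 tested members rose and 0 fell, with a median of 0.86, where 2.34% of all genes rose. The count was 3 without control 1, control 3 or DED 3 and 4 without DED 2. Ltf, the iron-binding protein lactoferrin, was at 196, 279.9 and 333 normalized counts in controls 1, 2 and 3 and 804, 1263 and 829 in DED 1, 2 and 3 (log2 fold change 1.84, SE 0.23, adjusted p = 0.00474). S100a7a, a psoriasin-type antimicrobial protein, was at 189, 324 and 476 in the controls and 1544, 1292 and 1236 in the DED libraries (2.13, SE 0.29, adjusted p = 0.00976). The groups were separate in both genes, and both kept their call without each library. S100a10, a partner of annexin A2, was at 11591, 13446 and 15788 in the controls and 25016, 26078 and 26554 in the DED libraries (0.94, SE 0.15, adjusted p = 0.0103), and Defb1, a beta-defensin, at 1545, 1238 and 1560 in the controls and 3291, 2206 and 2469 in the DED libraries (0.86, SE 0.17, adjusted p = 0.0244). Pglyrp4, a peptidoglycan recognition protein, was among the 12 strongest risers, at 438, 478 and 569 in the controls and 2135, 1412 and 1416 in the DED libraries (1.72, SE 0.18, adjusted p = 0.00296). S100a9, a subunit of calprotectin made by neutrophils and by stressed keratinocytes, was at 14.2, 34.7 and 28.4 in the controls and 497, 130.3 and 88.4 in the DED libraries (2.84, SE 0.64, adjusted p = 0.0495), with DED 1 far above the other DED libraries, and its call was lost when any 1 library but DED 1 or DED 3 was left out (up to 0.187). Summed neutrophil markers, among which S100a9 and Itgam carry nearly all counts, were 646.5 to 890.7 normalized counts in controls and 1020 to 2019 in DED libraries, and the defining markers Ly6g, Retnlg and Fpr2 were at 0 in all 6 libraries.

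Cornified envelope genes rose: 7 of 20 tested members rose and 0 fell, with a median of 0.63. Across all genes 2.34% rose and 2.42% fell. Sprr1a, a cross-linked envelope precursor, was at 96.6, 248 and 256 normalized counts in controls 1, 2 and 3 and 5419, 1857 and 2228 in DED 1, 2 and 3 (log2 fold change 3.94, SE 0.57, adjusted p = 0.0283), with DED 1 the highest. Cnfn, cornifelin, was at 61.6, 202 and 269 in the controls and 2966, 2009 and 1848 in the DED libraries (3.88, SE 0.58, adjusted p = 0.0303). Lce3a, a late cornified envelope gene, was at 65.8, 149 and 216 in the controls and 866, 859.5 and 705 in the DED libraries (2.64, SE 0.39, adjusted p = 0.0164). In each of these control 1 was the lowest library. Cdsn, the corneodesmosome protein, rose (1.69, SE 0.29, adjusted p = 0.019), and so did the skin secreted protein gene Dmkn (2.75, SE 0.54, adjusted p = 0.0234), with Asprv1, a protease that processes filaggrin, and Lce3b. The count was 3 without control 1, 2 or 3 or without DED 1, 2 without DED 3 and 0 without DED 2. Stress keratins did not pass (0 of 11, median 0.40). Krt16, named after its values were seen, ran from 85.7 to 654 normalized counts in controls and 2248 to 5568 in DED libraries, with an SE of 0.93 around a log2 fold change of 3.45 (adjusted p = 0.113). Kallikreins and protease inhibitors had 5 of 24 higher and 0 lower, with a median of 0.43. Among them were Klk8 (1.41, SE 0.26, adjusted p = 0.0193) and Klk12 (2.27, SE 0.54, adjusted p = 0.0441), kallikrein-family serine proteases, and Csta1, a cystatin of the cornified envelope (0.65, SE 0.15, adjusted p = 0.0388). That count was 0 without control 1 or control 3, 2 without DED 1 and 1 without DED 3.

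Few genes of the surface, of junctions and of corneal identity passed, where 2.34% of all genes rose and 2.42% fell. Lgals3, galectin-3, which binds the membrane mucins of the ocular surface, was at 9315, 12156 and 11834 normalized counts in controls 1, 2 and 3 and 17630, 20839 and 16530 in DED 1, 2 and 3 (log2 fold change 0.73, SE 0.16, adjusted p = 0.0304), the 1 of 12 mucin and glycocalyx genes that passed. Of 33 junction genes 1 rose and 3 fell. Cldn23, a claudin, rose (0.70, SE 0.14, adjusted p = 0.0249), and Cdh1, E-cadherin, fell by a small amount (-0.50, SE 0.12, adjusted p = 0.0448). Cldn8, another claudin, was at 80.8, 54.2 and 54.7 in the controls and 22.3, 13.8 and 16.7 in the DED libraries (-1.79, SE 0.33, adjusted p = 0.0185), and the desmosomal cadherin Dsg2 fell (-0.86, SE 0.15, adjusted p = 0.0174). Of 24 genes of corneal epithelial identity, 1 rose and 3 fell. Krt14, the basal keratin, was at 5862, 7827 and 7901 in the controls and 17452, 13308 and 9646 in the DED libraries (0.88, SE 0.21, adjusted p = 0.048), while Trp63, the regulator of basal progenitors, was at 2593, 1874 and 2389 in the controls and 1707, 1149 and 1308 in the DED libraries (-0.73, SE 0.18, adjusted p = 0.0487). Lrig1, a marker of stem cells in mouse skin, fell too (-0.84, SE 0.14, adjusted p = 0.0139), with Otx1 (-0.66, SE 0.14, adjusted p = 0.029). None of these junction and identity calls was kept without control 3 (adjusted p = 0.0621 to 0.155) or without DED 3 (0.0533 to 0.169).

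Genes of the NOTCH pathway fell: 6 of 14 tested members were lower and 0 were higher, against 2.42% and 2.34% of all genes. All 14 had a negative log2 fold change, with a median of -0.70 that lay between -0.83 and -0.65 under the other scalings. These are RNA levels, and signalling through the pathway was not measured. A change of scaling does not address transcript length, which is taken up further on. Notch1, a receptor of suprabasal cells, was at 945, 795 and 793 normalized counts in controls 1, 2 and 3 and 404, 406 and 459.6 in DED 1, 2 and 3 (log2 fold change -0.99, SE 0.14, adjusted p = 0.00664). Notch3 was at 2024, 2238 and 1927 in the controls and 848, 1268 and 954 in the DED libraries (-1.03, SE 0.16, adjusted p = 0.0108). The ligand Jag2 was at 1399, 1004 and 1136 in the controls and 457, 663 and 568 in the DED libraries (-1.07, SE 0.18, adjusted p = 0.0124) and Jag1 at 1349, 1011 and 794 in the controls and 528, 502 and 561 in the DED libraries (-0.95, SE 0.18, adjusted p = 0.0216). Each had all 3 DED libraries below the controls, and Notch2 (-0.61, SE 0.14, adjusted p = 0.034) and the ligand Dll1 (-1.09, SE 0.26, adjusted p = 0.0448) fell too. The target gene Hes1, named after its values were seen, did not pass (-0.33, SE 0.14, adjusted p = 0.167). The count of 6 was 3 without control 1, 2 without control 3 and 1 without DED 3, and Notch1 was the member whose call was kept in all 6 of these fits. In the WNT list 3 of 27 fell, the ligands Wnt7b (-0.69, SE 0.15, adjusted p = 0.0302) and Wnt3a (-0.98, SE 0.24, adjusted p = 0.0478) and the receptor-degrading ligase Rnf43 (-1.06, SE 0.23, adjusted p = 0.0338), and Dkkl1 rose (1.16, SE 0.29, adjusted p = 0.0495). No WNT gene fell when control 1, control 3 or DED 3 was left out, 1 did without DED 1 and 6 did without control 2. Of the epidermal growth factor system, the ligands Areg (1.12, SE 0.22, adjusted p = 0.0246) and Hbegf (0.58, SE 0.14, adjusted p = 0.0416) rose, and the receptor Erbb2 (-0.79, SE 0.16, adjusted p = 0.025) and the inhibitor Lrig3 (-0.83, SE 0.19, adjusted p = 0.0366) fell. These 4 did not pass without control 1 (0.0702 to 0.125), control 3 (0.0586 to 0.153) or DED 3 (0.116 to 0.169).

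Of 26 cholesterol synthesis genes 11 rose and 0 fell, against 2.34% and 2.42% of all genes. Their median was 0.47 and lay between 0.35 and 0.53 under the other scalings. Pmvk, a kinase of the mevalonate pathway, was at 578, 800.5 and 708 normalized counts in controls 1, 2 and 3 and 1445, 1867 and 1908 in DED 1, 2 and 3 (log2 fold change 1.32, SE 0.17, adjusted p = 0.00474). Insig1, which holds the sterol sensor in the endoplasmic reticulum, was at 3376, 3680 and 4592 in the controls and 7280, 8936 and 7483 in the DED libraries (1.03, SE 0.16, adjusted p = 0.00976). Fdps, farnesyl diphosphate synthase, was at 213, 189 and 212 in the controls and 389.5, 466 and 347 in the DED libraries (0.96, SE 0.16, adjusted p = 0.0132). Every DED library lay above every control in these 3. Cyp51, a sterol demethylase, was at 2427, 2468 and 2784 in the controls and 4111, 4218 and 4404 in the DED libraries (0.73, SE 0.13, adjusted p = 0.0146), and Hmgcs1, which feeds the pathway, at 5729, 5489 and 6812 in the controls and 9398, 8619 and 8867 in the DED libraries (0.58, SE 0.14, adjusted p = 0.0419). The promoter of Hmgcs1 holds TCACCCCAC, the sterol element bound by SREBP, in capitals, and that of Insig1 an E-box (both RefSeq, GRCm38.p6). An E-box was found in 4 of the 19 cholesterol synthesis genes with a RefSeq promoter (21.1%), against 9.58% of the tested genes with one.
Hmgcs1 (chr13:119690192-119690244, plus strand): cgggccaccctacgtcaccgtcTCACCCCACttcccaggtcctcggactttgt
Insig1 (chr5:28071289-28071338, plus strand): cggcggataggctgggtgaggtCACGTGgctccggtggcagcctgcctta
The sterol letters were found in 1 of 19 promoters of the list (5.26%) and in 0.662% of all tested genes with a promoter. Leaving out control 1 or 3 lowered the count of 11 to 4 and 3, and leaving out DED 2 or 3 lowered it to 6 and 3. Of 28 fatty acid and lipid genes 2 rose and 1 fell. Fabp5, an epidermal fatty acid carrier, was at 2110, 2344 and 2633 in the controls and 12159, 6707 and 6332 in the DED libraries (1.77, SE 0.23, adjusted p = 0.00554), and Scd1, a desaturase, at 510.3, 463 and 621 in the controls and 1270, 986 and 1080 in the DED libraries (1.07, SE 0.16, adjusted p = 0.00858). Cpt1a, which admits fatty acids to mitochondria for burning, fell (-0.76, SE 0.17, adjusted p = 0.0371).

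Lipoxygenases moved in opposite directions. Beside the rise of Alox12b, Alox12e, the epidermal-type 12-lipoxygenase of the mouse, was at 241, 462 and 479 normalized counts in controls 1, 2 and 3 and 45.4, 106 and 106 in DED 1, 2 and 3 (log2 fold change -2.22, SE 0.38, adjusted p = 0.0195). Alox15, another lipoxygenase of arachidonic acid, was at 88.2, 112 and 121 in the controls and 38.5, 36.3 and 27.5 in the DED libraries (-1.62, SE 0.26, adjusted p = 0.0106). Pla2g2f, a secreted phospholipase of skin, was at 48.3, 61.8 and 41 in the controls and 233, 158 and 78.6 in the DED libraries (1.5, SE 0.36, adjusted p = 0.046), with DED 3 the lowest of its group. Alox12e and Alox15 were lower in every DED library, but neither passed without control 3 (0.0717 and 0.068), Alox15 did not without DED 3 (0.0542), and Pla2g2f passed only without control 2 (0.0364) or DED 3 (0.0299). In retinoid metabolism Crabp2, which carries retinoic acid to the nucleus, was at 13.3, 19.5 and 16.8 in the controls and 67.6, 86.5 and 79.5 in the DED libraries (2.18, SE 0.29, adjusted p = 0.00618). Cyp26b1, which degrades retinoic acid, was at 1724, 1574 and 1134 in the controls and 510.2, 796 and 549.9 in the DED libraries (-1.26, SE 0.20, adjusted p = 0.0124). Aldh1a3, which makes retinoic acid, rose (0.71, SE 0.17, adjusted p = 0.0441). So the carrier and the synthetic enzyme were higher and the degrading enzyme was lower, and Crabp2 kept its call without each library, while Cyp26b1 lost it without DED 3 (0.0689) and Aldh1a3 when any library but control 2 was left out (up to 0.14).

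Of 28 glycolysis and hypoxia genes 6 rose and 0 fell, with a median of 0.44, where 2.34% of all genes rose. Ldha, lactate dehydrogenase, was at 4652, 6240 and 5738 normalized counts in controls 1, 2 and 3 and 10764, 9553 and 9588 in DED 1, 2 and 3 (log2 fold change 0.85, SE 0.15, adjusted p = 0.0148), and Pkm, pyruvate kinase, at 3995, 6134 and 5237 in the controls and 8743, 9283 and 9139 in the DED libraries (0.84, SE 0.17, adjusted p = 0.0227). Pgk1 (0.69, SE 0.14, adjusted p = 0.0279) and Pgam1 (0.62, SE 0.15, adjusted p = 0.043) rose as well. The count was 1 without control 1 or DED 2 and 0 without control 3 or DED 3. Of 49 respiratory chain genes 7 rose and 48 had a positive log2 fold change (median 0.40). Ndufa4 was at 3110, 3931 and 4319 in the controls and 9387, 7984 and 9282 in the DED libraries (1.24, SE 0.16, adjusted p = 0.00474), and Cycs, cytochrome c, at 437, 516 and 538 in the controls and 1021, 802 and 909 in the DED libraries (0.87, SE 0.15, adjusted p = 0.0135). Without control 1, control 3, DED 2 and DED 3 the count was 2, 1, 2 and 1. Of 60 cytosolic ribosomal protein genes 59 were positive with a median of 0.36, but none passed. Many of these genes have processed pseudogenes, which makes their counts uncertain.

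Transcript length moved with the change. The 356 lower genes had a median longest transcript of 5625 bases and the 344 higher ones of 2520, against 3076 over all tested genes with an annotated length. With the genes split by transcript length into 3 equal classes, the median log2 fold change was 0.19 in the shortest class (up to 2262 bases), -0.01 in the middle and -0.20 in the longest (from 4008 bases). In the shortest class 160 genes rose and 26 fell, and in the longest 67 rose and 260 fell. Among the genes described here that fell, Notch1 (9488 bases), Notch3 (8016), Jag1 (5612), Jag2 (5106), Lama3 (10548), Lamb3 (4867) and Col17a1 (5588) lay in the longest class. Of the clock genes that fell, Per2 (5833), Per3 (5999), Nr1d2 (4663) and Tef (4403) also lay in the longest class. Nr1d1 (2721), Cry2 (3976) and Bhlhe40 (3113) lay in the middle, and Dbp (1837), Cyp2a5 (2013) and Ciart (1939) in the shortest. Ccnd2 (6330), Ahnak2 (5443), Plxnb1 (8649), Sorl1 (10715) and Kit (5241) lay in the longest class as well. Gldc (3767) and Snx31 (2696) lay in the middle. Of the respiratory chain genes that rose, Ndufa4 (1232) lay in the shortest class and Cycs (3123) in the middle. Il1f6 (883), Il1f8 (1217) and Il1a (1974), which rose, lay in the shortest class and Il1f5 (2842) in the middle. Sprr1a (806), Lce3a (549) and Dmkn (2063) also lay in the shortest class, with Cdsn (2678) in the middle. Of the clock genes that rose, Cry1 (3026) and Arntl (3995) lay in the middle and Npas2 (4236) in the longest class. The part of length in these results was not tested.

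Of 32 collagen and matrix genes 4 fell and 0 rose, against 2.42% and 2.34% of all genes. Among those that fell, Lamb3 and Lama3 encode laminin chains of the epithelial basement membrane, and Col17a1 the hemidesmosomal collagen. Col17a1 was at 15634, 11109 and 13263 normalized counts in controls 1, 2 and 3 and 6974, 8179 and 7397 in DED 1, 2 and 3 (log2 fold change -0.82, SE 0.16, adjusted p = 0.021). Lamb3 was at 515, 382 and 419.5 in the controls and 188, 224 and 246 in the DED libraries (-0.99, SE 0.17, adjusted p = 0.0136), and Lama3 fell (-0.97, SE 0.23, adjusted p = 0.046). The list as a whole had a median of 1.19, with 26 of the 32 genes positive, none of which passed. Those fits swung with single libraries: 14 matrix genes rose without DED 1 and 4 without control 2, 1 fell without control 1, and 0 fell without control 3 or DED 3. In bulk tissue, more cells of a type and more RNA per cell cannot be told apart. In the TGF-beta list 4 rose and 1 fell of 27. Acta2, smooth muscle actin, was at 20, 40.1 and 42.1 in the controls and 109, 119 and 197 in the DED libraries (2.05, SE 0.34, adjusted p = 0.0135). Tagln (0.98, SE 0.22, adjusted p = 0.0346), Vim (1.48, SE 0.34, adjusted p = 0.0426) and Tgfb3 (1.95, SE 0.42, adjusted p = 0.0302) rose and Smad3 fell (-0.75, SE 0.18, adjusted p = 0.0434). Mmp3, stromelysin-1, was at 15, 44.5 and 20 in the controls and 88.2, 149 and 151 in the DED libraries (2.35, SE 0.40, adjusted p = 0.0136), and Timp3, an inhibitor of metalloproteinases, at 386, 350.4 and 363 in the controls and 564, 1051 and 1582 in the DED libraries (1.42, SE 0.32, adjusted p = 0.0482). The metalloproteinase genes Mmp28 (-0.84, SE 0.15, adjusted p = 0.0158) and Mmp15 (-0.92, SE 0.23, adjusted p = 0.0487) fell. None of the TGF-beta or metalloproteinase genes passed without DED 3 (0.072 for Mmp28 and 0.0734 for Acta2).

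Of 12 tested vessel markers 4 rose, where 2.34% of all genes did, and all 12 were positive. The summed level of vessel markers was 124.9 to 237.6 normalized counts in controls and 516.2 to 767 in DED libraries. Tie1, an endothelial receptor, was at 25, 42.3 and 56.8 normalized counts in controls 1, 2 and 3 and 199.5, 204 and 156 in DED 1, 2 and 3 (log2 fold change 2.21, SE 0.30, adjusted p = 0.00618). Cdh5, the endothelial cadherin, was at 0, 2.17 and 2.1 in the controls and 18.8, 30.1 and 22.6 in the DED libraries (adjusted p = 0.019), so the controls lay near 0. Pdgfrb (2.14, SE 0.43, adjusted p = 0.0258) and Rgs5 (2.16, SE 0.48, adjusted p = 0.0359), of the cells around vessels, also rose. The count was 2 without control 1 or DED 2, 6 without control 2 and 1 without control 3 or DED 3. Markers of the iris, ciliary body and pigment cells summed to 2084 to 2780 in controls and 3818 to 6483 in DED libraries, and 2 of 13 tested rose. Mlana, a pigment cell gene, was at 1.67, 13 and 7.36 in the controls and 71, 41.4 and 116 in the DED libraries (3.39, SE 0.61, adjusted p = 0.0186). None of the 13 passed without control 3 (0.0648 for Mlana) or DED 3 (0.0951 for Mlana), and 1 did without control 1. All 22 retina markers were positive (median 2.54) and 0 passed, and 0 of 8 lens markers passed (median -1.81). Without control 2 and DED 3, the libraries with most retina, lens and muscle markers, 3 vessel genes rose, 448 genes passed in all (283 higher, 165 lower), and 2 clock loop genes rose and 6 fell. Leaving them out did not even out the retina markers, whose median was 2.67 in that fit. Their sums were 356.3 and 1828 in controls 1 and 3 and 7016 and 4025 in DED 1 and 2. The part of neighbouring tissue in the stromal and vessel results was not tested.

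Markers of immune cells were scarce. Of 16 listed neutrophil markers 2 were high enough to be tested, and of 20 lymphocyte markers none was, with a sum of 19.5 to 27.5 normalized counts in controls and 17.5 to 29.1 in DED libraries. Of 8 tested macrophage and dendritic cell markers 0 passed: Lyz2, lysozyme, was at 16.6, 40.1 and 36.8 in the controls and 50.5, 145 and 132 in the DED libraries (1.73, SE 0.45, adjusted p = 0.0568) and Aif1 at 9.16, 8.68 and 10.5 in the controls and 23.1, 26.3 and 16.7 in the DED libraries (1.12, SE 0.41, adjusted p = 0.124). Their summed level was 796.6 to 901.4 normalized counts in controls and 890.3 to 1030 in DED libraries, which overlap. Conjunctiva and goblet cell markers had 0 of 7 passing, keratocyte markers 0 of 15 (median 1.09) and corneal endothelium markers 0 of 12 (median 1.33). Of 5 tested nerve and Schwann cell markers L1cam, an axonal adhesion molecule, fell (-0.72, SE 0.14, adjusted p = 0.0244), with an adjusted p of 0.119 without DED 3.

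**Figure D4:**
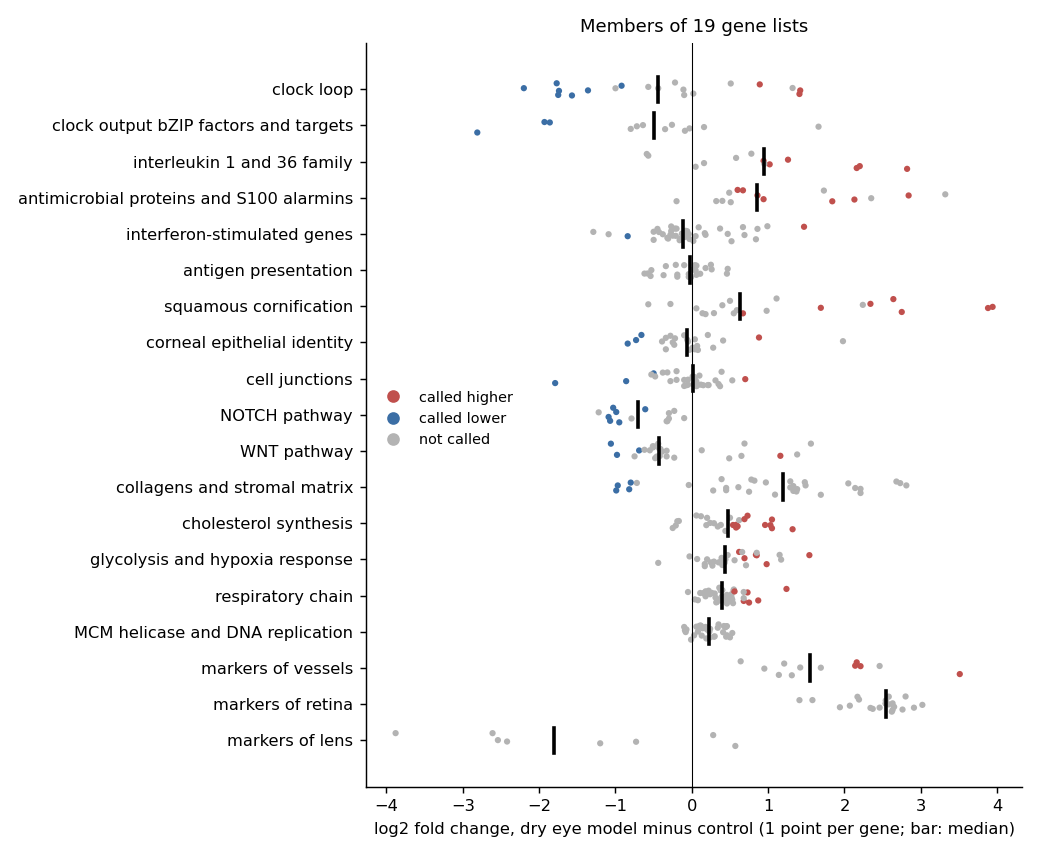
Log2 fold change, dry eye model minus control, of every tested member of 19 gene lists, 1 point per gene, red where it rose, blue where it fell and grey where it did not pass, with a black bar at each list's median. NOTCH genes lie left of 0, cholesterol synthesis genes mostly right of it with 11 in red, and the retina markers (1.41 to 3.02) and lens markers (-3.88 to 0.57) have no coloured point.

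**Figure D5:**
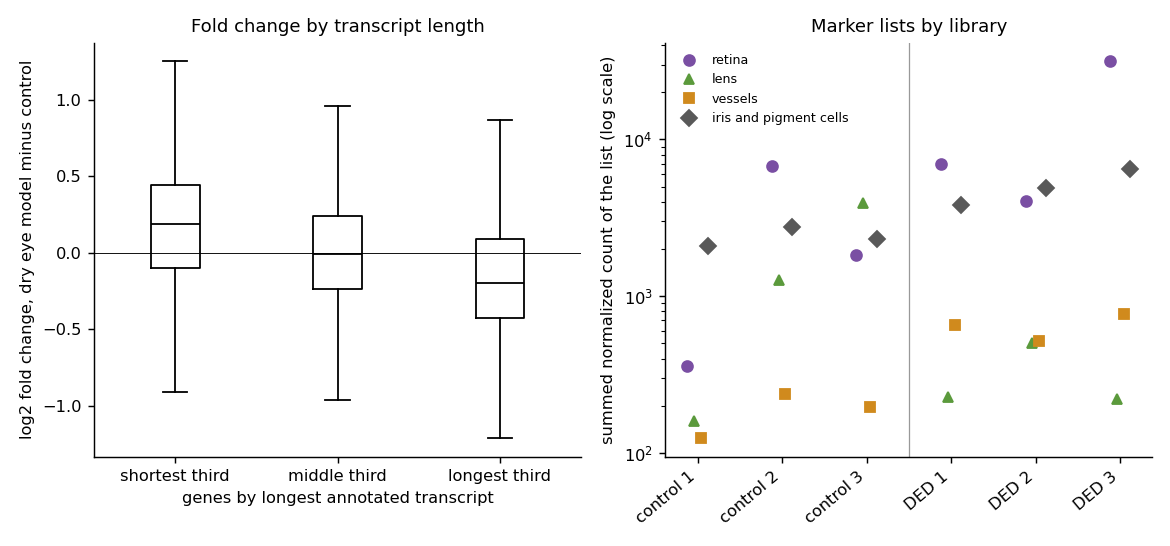
On the left, box plots (median, quartiles, whiskers to 1.5 times the quartile range) give the log2 fold change of genes in 3 equal classes of transcript length, with medians of 0.19, -0.01 and -0.20. On the right, points give the summed normalized count (log scale) of the retina, lens, vessel and iris marker lists in each of the 6 libraries, where DED 3 is highest for retina, vessels and iris.

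Nerve, stress and water genes changed in few members, where 4.76% of all genes passed. Ngfr, the low-affinity neurotrophin receptor, which also marks basal epithelial cells, was at 459, 409 and 415 normalized counts in controls 1, 2 and 3 and 126, 213 and 169 in DED 1, 2 and 3 (log2 fold change -1.36, SE 0.20, adjusted p = 0.00827). Its co-receptor Sort1 fell (-0.61, SE 0.12, adjusted p = 0.0244), and Slit2, an axon guidance ligand, rose (2.10, SE 0.48, adjusted p = 0.04). Ngfr kept its call without each library. Slc5a3, the inositol carrier that cells induce in concentrated fluid, was at 28.3, 11.9 and 22.1 in the controls and 86.5, 51.4 and 88.4 in the DED libraries (1.85, SE 0.38, adjusted p = 0.0261). Trpv4, a channel opened by swelling, was at 512, 452 and 361 in the controls and 249, 299.5 and 261 in the DED libraries (-0.70, SE 0.17, adjusted p = 0.0439). They were the 2 of 16 osmotic stress and water channel genes that passed, and Slc5a3 shares its locus with Mrps6. Of 28 antioxidant genes 2 rose, Txnrd1, thioredoxin reductase, at 418, 532 and 613 in the controls and 1192, 1084 and 996 in the DED libraries (1.08, SE 0.16, adjusted p = 0.00971), and Akr1b8 (1.31, SE 0.30, adjusted p = 0.0413). In the unfolded protein response Chac1 (0.88, SE 0.18, adjusted p = 0.0286) and Xbp1 (0.56, SE 0.14, adjusted p = 0.0482) rose and the sensor Ern1 fell (-0.65, SE 0.16, adjusted p = 0.0476), 3 of 23, and Hsph1 (0.90, SE 0.17, adjusted p = 0.0203) was the 1 of 16 heat shock genes that passed. Beside Gch1, the polyamine enzyme gene Sat1 (0.72, SE 0.15, adjusted p = 0.0302) and the endothelial nitric oxide synthase gene Nos3 (1.27, SE 0.24, adjusted p = 0.021) rose, and the arginine carrier gene Slc7a1 fell (-0.87, SE 0.18, adjusted p = 0.0254). Apart from Ngfr, Txnrd1 and Gch1, each of these genes that passed lost its call without control 3 (0.0627 to 0.151) and without DED 3 (0.0734 to 0.163).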

How the data were processed

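RNA-seq of mouse cornea was compared between 3 DED model and 3 untreated libraries. The deposited values are log2 of the count plus 1, unscaled: counts recovered from them were whole within 0.01 for 99.9743% of values. The authors' genome build was mm9, per the submitters' processing notes, while aligner, counter and strand setting are not given there or in the labels. Left out were 19 lines (10 not whole, 9 named by a date), at most 0.0495% of a library's counts, and 1 value column, equal on every line to the mean of 2 others, was used in no step.

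Counts were divided by median-of-ratios size factors, and log2(normalized count + 1) was fitted with limma 3.58.1 (R 4.3.3) using a variance trend and robust priors (4 residual degrees of freedom, median prior 6.37) and two-sided p-values. With 3 against 3 an exact permutation test cannot go below p = 0.1 and was not used. Named were per direction the 12 most significant genes that passed, changed at least 2-fold and did not overlap between groups, leaving out predicted genes. Also named were up to 4 passing members of each of 53 lists (or the 2 with the smallest p), all clock members and 4 tissue markers, 185 in all, of which some are not reported here. Il1f9, Il1rn, Il18, Cnfn, Krt16, Hes1, Notch2, Dll1, Smad3 and Hmgcs1 were added after their values were seen. The comparison and the lists were chosen with earlier results of these data known. Of the named genes 55 overlap another gene in GENCODE (47 an antisense gene), so their counts are uncertain. Alternatives changed the test, scaling, pseudocount (0.5 and 5), filter, replicate block and libraries.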

Additional observations from a re-analysis of the deposited data

How the results depend on the processing

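All 700 genes that passed kept their direction under every alternative in which they were tested (622 of them with a count of at least 50 in 3 libraries), and none of the 185 named genes reversed. With groups separate in all 700 and only small shifts between scalings, reversals could hardly occur, so this says little about stability. Of the 134 named genes that passed, 17 kept the call under all 18 alternatives. The number of genes passing varied widely. It was 259 (145 higher, 114 lower) with all 11 independent libraries in the fit, 465 (228 and 237) with limma voom, 69 (51 and 18) with limma without trend and robust estimation, 104 (73 and 31) as deposited, 857 (238 and 619) with library totals and 675 (415 and 260) with 75th percentile scaling. Without a filter 970 of 26614 genes passed (531 and 439). Without control 2 and DED 3, which hold the most marker counts of neighbouring tissues, 448 passed (283 and 165). The retina markers stayed higher in the DED libraries in that fit (median 2.67). Leaving out 1 library at a time gave 97 to 1071 genes, 63 to 601 higher and 34 to 470 lower. With the replicate number as a block 3186 genes passed (1593 and 1593), but the numbers do not pair the samples: deviations of same-numbered libraries from their group means correlated at 0.36, 0.07 and -0.06, and control 2 correlated best with DED 3 (0.42). Pseudocounts of 0.5 and 5 gave 668 and 714. The medians of 11 lists, all near 0, changed sign under a scaling alternative. The cause of these shifts was not tested. With 10355125 counts in the smallest library, genes near the minimum of 10 counts carry the largest counting error.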

Other observations

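The largest fitted rises were in predicted genes without an established name. Gm47985 was at 0, 1.08 and 1.05 normalized counts in controls 1, 2 and 3 and 103, 102 and 84.5 in DED 1, 2 and 3 (adjusted p = 0.000965, limma), and Gm8947 was at 1.67, 4.34 and 0 in the controls and 111, 112 and 54 in the DED libraries (adjusted p = 0.00437). Both were near 0 in every control and above 50 in every DED library. They were chosen after their values were seen, and what they encode is not annotated in the tables used here.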
